A study of Mus musculus with 16 samples.

Results

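Chromatin accessibility was examined over 3 stretches of the mouse genome that are rich in olfactory receptor genes, in medullary thymic epithelial cells (mTECs). The stretches were chosen by position alone, in mm9 coordinates. They are chromosome 2 from 85100000 to 89900000, chromosome 7 from 109600000 to 116000000 and chromosome 9 from 37400000 to 40200000. A region of the deposited table was a member when it lay wholly inside one of them. This gave 394 members of 250313 regions: 53 on chromosome 2, 230 on chromosome 7 and 111 on chromosome 9. Every region was 500 bp long.

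The assay was ATAC-seq, which uses the Tn5 transposase to place sequencing adapters in accessible DNA. It was run on sorted mTECs from the thymus of 4-week-old C57BL/6 mice. The groups were Aire-/-, Aire+/+, Brg1-/- and Brg1+/+ mice, each sorted into mTEChi and mTEClo cells by high or low surface MHC class II, with 2 libraries in each of the 8 groups and 60000 cells per reaction. All sorted cells were negative for DAPI and CD45, positive for EpCAM and UEA, and low for Ly51. The Brg1+/+ libraries are described as NOCRE, so that Cre itself may separate them from Brg1-/- libraries, and the promoter driving Cre is not given in the labels. Nothing in the labels ties the paired libraries of a group to separate mice. The p-values therefore reflect the spread between these libraries alone, which may be technical. In bulk samples, fewer accessible cells and less signal per cell cannot be told apart.

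Olfactory receptors are G-protein-coupled receptors for odorants and form the largest gene family of the mouse, arranged in clusters on many chromosomes. Each olfactory sensory neuron expresses one allele of one receptor gene, while the other receptor genes are held in heterochromatin. mTECs express a large part of the tissue-specific genes of the body, so that maturing T cells meet those antigens in the thymus. Aire, found mostly in mTEChi cells, is needed for much of this transcription, and Brg1 is the ATPase of SWI/SNF remodelling complexes.

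No mm9 annotation was used here, so the gene content of the stretches was read only from gene order in the RefSeq annotation of another build (GRCm38.p6), and members were not assigned to genes, promoters, exons or introns. In that gene order, the longest run of olfactory receptor genes on chromosome 2 held 293 receptor entries, pseudogenes included, among 332 entries, with 3 other protein-coding genes (Fads2b, Pramel7 and Pramel6). The run on chromosome 9 held 127 among 144, also with 3 others (Vwa5a, AW551984 and Tmem225). The run on chromosome 7 was more mixed, with 238 receptor entries among 357 and 55 other protein-coding genes. Among these were the beta-globin genes Hbb-bt, Hbb-bs, Hbb-bh1, Hbb-bh2 and Hbb-y, and Trim genes such as Trim21 and Trim30a, which encode RING-type ubiquitin ligases. Which of these genes lie beside a given member was not analysed here. The ends of the runs were not matched to the mm9 limits of the stretches. A stretch may therefore hold genes outside its run, and members near its ends may lie beside them.

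The stretches held few regions. There were 11.0 regions per Mb in the chromosome 2 stretch, against 109.8 per Mb on the rest of that chromosome, a 9.95-fold lower density. The chromosome 7 stretch held 35.9 per Mb against 103.4 (2.88-fold lower), and the chromosome 9 stretch 39.6 per Mb against 124.3 (3.14-fold lower). Over all 14 Mb the density was 28.1 per Mb, against 97.6 per Mb over the rest of the 19 autosomes and chromosome X, or 3.47-fold lower. Chromosomes were measured from their first to their last region.

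Low density was not limited to these stretches. Of 2532 bins of 1 Mb elsewhere in the genome, 9.12% held fewer regions than the chromosome 2 stretch held per Mb, 24.7% fewer than the chromosome 7 stretch and 27.0% fewer than the chromosome 9 stretch. The 11 bins lying wholly inside the stretches held 4 to 67 regions with a median of 16, and all 11 were below the median of 88 in the other bins.

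Density was higher in the 2 Mb on either side of each stretch than inside it. The 2 Mb below the chromosome 2 stretch held 135 regions per Mb and the 2 Mb above it 145. For chromosome 7 these values were 186.5 and 187. For chromosome 9 they were 80.5 below and 181.5 above, the first of which is under the 124.3 of the rest of that chromosome. Moving each limit outward by 200 kb took the overall ratio to 2.74-fold, and moving it inward took it to 4.18-fold.

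**Figure D1:**
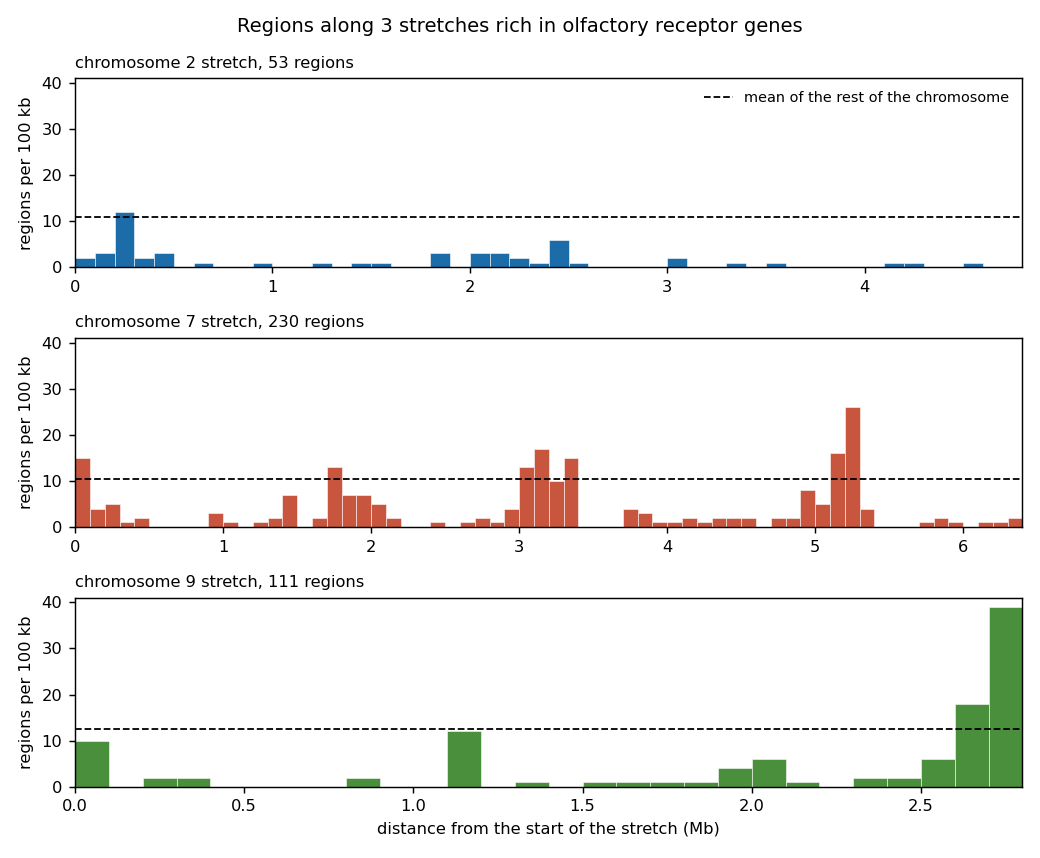
Regions per 100 kb (vertical axis) along each stretch, by distance from its start in Mb; the dashed line is the mean of the rest of the chromosome. Most bins lie below the line, and 52 of the 140 bins hold no region, while single bins of the chromosome 7 and 9 stretches reach 26 and 39.

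Within the stretches, regions were unevenly spread. Of 140 bins of 100 kb, 52 (37.1%) held no region, against 3036 of 25579 bins elsewhere (11.9%). Empty bins made up 25 of 48 on chromosome 2, 17 of 64 on chromosome 7 and 10 of 28 on chromosome 9. The 5 fullest bins of each stretch held 50.9%, 38.7% and 76.6% of its members, in the same chromosome order.

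The longest gap without a region was 579.6 kb on chromosome 2, from 87616786 to 88196391. It was 484.2 kb on chromosome 7, from 110068549 to 110552760, and 527.7 kb on chromosome 9, from 37740529 to 38268244. Gaps of this length occurred elsewhere too: 87, 132 and 108 other gaps were at least as long as these. Gaps of 100 kb or more made up 40 of the 391 gaps between neighbouring members and 2652 of 249896 elsewhere. Even so, 59.1% of member gaps were under 10 kb, against 77.0% of the others.

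When neighbours up to 50 kb apart were joined, the members formed 69 islands, of which 31 were single regions. Only 9 islands held 10 or more members, and these held 262 members (66.5%) in 1.70 Mb, or 12.1% of the length. The fullest lay at the upper end of the chromosome 9 stretch, from 39920845 to 40199507, with 63 members, and it ended 0.493 kb inside the limit. This island held 63 of the 111 members of that stretch, and 58 of the 97 tested. Values for the chromosome 9 stretch therefore describe this island in large part, and several chromosome 9 members named below lie in it. The next fullest was on chromosome 7 from 114498765 to 114932169, with 59 members. Chromosome 2 had a single such island, from 85259667 to 85401728, with 17 members. The share of members in such islands was 45.4% when neighbours were joined up to 20 kb and 82.7% up to 100 kb.

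Signal at single members was close to that of other regions. Averaged over the 16 libraries, the deposited signal had a median of 13.7 over all 394 members (quartiles 8.75 and 25.3), against 14.2 over the 249919 other regions. The medians were 12.3 on chromosome 2, 13.4 on chromosome 7 and 15.8 on chromosome 9, and 15.4 in the 1831 regions of the flanks. Weak regions were more frequent among members, since 72 (18.3%) lay below the 10th percentile of all regions (a signal of 7.48), against 9.99% of the others. Strong regions were about as frequent, with 39 members (9.90%) at or above the 90th percentile (52.5), against 10.0% of the others. The weak members lay mostly apart from the large islands: the median signal was 15.7 inside them and 9.94 outside them, where 34.1% of 132 members were below the 10th percentile, against 10.3% inside.

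The members with the highest signal were open in every library. On chromosome 7 from 112548465 to 112548964, mean signal was 459.3, the highest of all members, and it lay between 398 and 628 in the 16 libraries. Another region of chromosome 7, from 112959434 to 112959933, averaged 356.7, with libraries between 303 and 436. On chromosome 9 from 37421058 to 37421557 the mean was 196.4 and the range 162 to 250.4. None of these 3 passed in a sort or knockout comparison, and at each of them the ranges of the sorts overlapped. The third region by signal, on chromosome 7 from 109713784 to 109714283, averaged 239.2, with libraries between 142 and 365, and its smallest limma adjusted p was 0.126. The fourth did pass: on chromosome 9 from 40129010 to 40129509, where the mean was 223.4 and the libraries held 104 to 358, signal in Brg1-/- mice was 104 and 137 in mTEChi against 235 and 194 in mTEClo. The log2 fold change was -0.83 (SE 0.21, limma adjusted p = 0.0151), and the call was lost with cyclic loess (0.0590), without Brg1-/- mTEChi replicate 1 (0.137) and without Brg1-/- mTEClo replicate 1 (0.161). Of the 39 members at or above the 90th percentile of signal, 15 (38.5%) passed in at least one sort comparison, against 36.5% of other regions that strong. Of the 53 members in the chromosome 2 stretch, 2 (3.77%) were of this strength. Its strongest, from 85359013 to 85359512, averaged 90.2, between 58.5 and 135 in the 16 libraries.

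The signal test used log2(signal + 1) and left out regions with a mean under 7.48, which kept 322 members (42, 183 and 97 on chromosomes 2, 7 and 9) and 225281 regions in all. Among these, the median member lay above the median of the other regions in 13 of 16 libraries, by -0.25 to 0.34 on the log2 scale (mean 0.085, within-group SD 0.17, n = 2 per group). Without the filter the mean was -0.063, so the sign depends on leaving out the weak regions, which were more frequent among members.

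The stretches differed in this measure. The chromosome 2 members lay below other regions in all 8 mTEClo libraries, by 0.05 to 0.81 on the log2 scale, and in 4 of 8 mTEChi libraries, where the differences spanned -0.70 to 0.59. The chromosome 7 members lay above other regions in all 8 mTEClo libraries, by 0.03 to 0.49, and between -0.36 and 0.15 in mTEChi libraries. The chromosome 9 members lay above in 15 of 16 libraries.

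**Figure D2:**
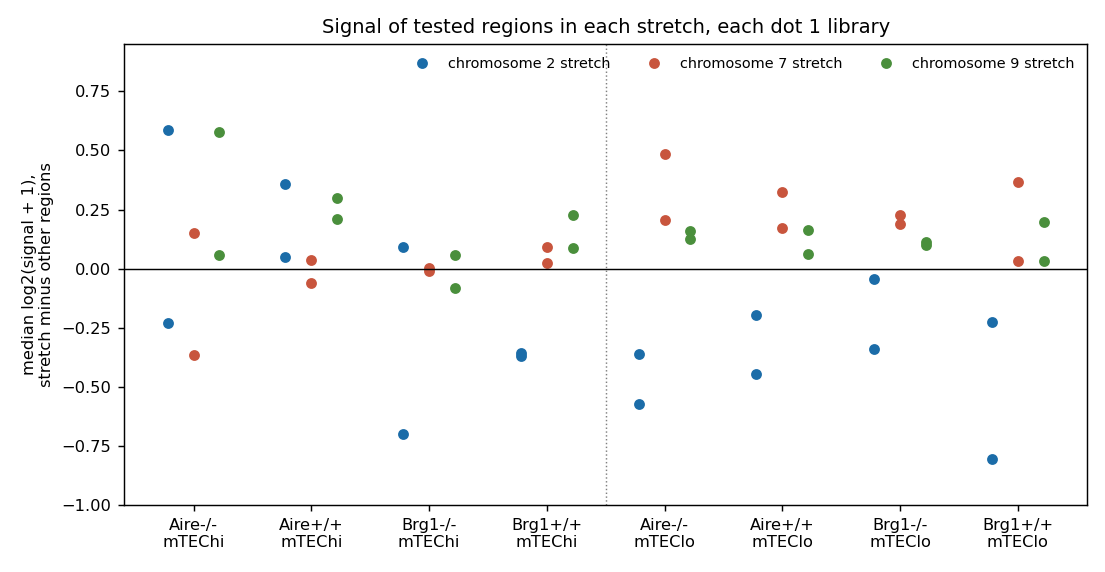
Median log2(signal + 1) of the tested members of each stretch minus that of the other tested regions (vertical axis), for each library of the 8 groups; each dot is 1 library. The chromosome 2 stretch is below 0 in every mTEClo library and on both sides of 0 in mTEChi libraries, where replicates of a group can lie on either side of it.

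The sort comparison asked which members distinguish mTEChi from mTEClo cells. Members rose and fell between the sorts at rates near those of all regions. In Aire-/- mice, 33 of 322 members (10.2%) passed in limma at a Benjamini-Hochberg adjusted p under 0.05, against 11.4% of all tested regions. Of these, 19 were higher in mTEChi, where 7.15% of all regions were, and 14 were lower, where 4.22% were. In Aire+/+ mice 24 passed (7.45%, against 8.79%), 10 higher (background 5.14%) and 14 lower (background 3.65%). In Brg1-/- mice 20 passed (6.21%, against 8.11%), 16 higher (background 6.61%) and 4 lower (background 1.50%). In Brg1+/+ mice 37 passed (11.5%, against 13.0%), 23 higher (background 9.21%) and 14 lower (background 3.75%). The total share of members called was below its background in each genotype; the gap was not tested.

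The split by direction depended on library scaling. The median log2 fold change of other regions was 0.10, 0.16, 0.62 and 0.42 in Aire-/-, Aire+/+, Brg1-/- and Brg1+/+ mice. The median over members was 0.10, 0.08, 0.55 and 0.38 in the same genotypes. For other regions, quantile normalization brought the median to -0.056, -0.017, -0.0071 and -0.0051 in that order. Cyclic loess brought it to -0.0062, 0.029, 0.019 and 0.0016. Re-centring took it below 0, to -0.19, -0.18, -0.17 and -0.094, which in both Aire genotypes is further from 0 than before. With each library re-centred on its median, higher and lower members numbered 10 and 23 in Aire-/-, 7 and 18 in Aire+/+, 2 and 24 in Brg1-/-, and 6 and 25 in Brg1+/+. Quantile normalization gave 18 and 22, 10 and 17, 1 and 9, and 6 and 16 in that order, and cyclic loess gave 15 and 20, 7 and 16, 2 and 6, and 10 and 16. Calls over all tested regions moved towards lower too. With re-centring, 4.63% were higher and 6.15% lower in Aire-/-, 2.93% and 5.86% in Aire+/+, 1.38% and 6.23% in Brg1-/-, and 4.04% and 7.48% in Brg1+/+, against 7.15% and 4.22%, 5.14% and 3.65%, 6.61% and 1.50%, and 9.21% and 3.75% without it. Quantile normalization gave 6.44% and 6.09%, 4.61% and 5.59%, 1.51% and 2.71%, and 3.33% and 4.25% of all regions in the same order of genotypes, and cyclic loess gave 5.87% and 5.13%, 4.09% and 4.33%, 1.68% and 2.03%, and 4.90% and 5.31%.

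Leaving out 1 library lowered these counts, and it lowered the calls over all tested regions as well. For Aire+/+ mice only the 2 lowest of the 4 counts of members are listed. The falls without its other libraries were smaller. The Aire+/+ count of 24 was 13 without mTEChi replicate 2 and 5 without mTEClo replicate 2. The Aire-/- count of 33 was 15 and 18 without mTEChi replicates 1 and 2, and 16 and 9 without mTEClo replicates 1 and 2. The Brg1-/- count of 20 was 12 and 7, then 7 and 9, in the same order of libraries. The Brg1+/+ count of 37 was 20 and 17, then 18 and 15. Over all tested regions, the share called in Aire+/+ mice was 5.69% without mTEChi replicate 2 and 2.80% without mTEClo replicate 2, against 8.79% with every library. In Aire-/- mice it was 4.17%, 5.36%, 5.40% and 4.00% without each library in the order above, in Brg1-/- mice 4.30%, 2.64%, 2.91% and 3.56%, and in Brg1+/+ mice 7.56%, 6.54%, 6.30% and 5.20%. Each such fit leaves a group with 1 library, which is assumed to vary like the other groups.

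Over the 4 genotypes, 75 of 322 members (23.3%) passed in at least one, against 24.3% of all tested regions. None passed in opposite directions. Higher in mTEChi in at least one genotype were 49 members, or 15.2%, against 16.7% of other regions; higher in mTEClo were 26, or 8.07%, against 7.68%. Of the members higher in mTEChi, 4 passed in both wild types, which is 40% of the 10 called in Aire+/+ mice and 17.4% of the 23 in Brg1+/+ mice; among other regions these shares were 58.3% and 32.5%. Of those higher in mTEClo, 9 passed in both, or 64.3% of the 14 in each, against 48.4% and 47.1% among other regions. The differences between these shares were not tested.

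All 8 mTEChi libraries lay above all 8 mTEClo libraries at 11 of 322 members (3.42%), against 5.15% of all tested regions. The reverse held at 8 members (2.48%), against 1.93%.

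Only 2 members were higher in mTEChi in all 4 genotypes (1.34% of all tested regions were) and 2 were lower in all 4 (0.594% were). The first lay on chromosome 9 from 38532782 to 38533281. Signal in mTEChi libraries was 60.7 and 36.6 in Aire-/-, 49.3 and 41.4 in Aire+/+, 10.1 and 29.9 in Brg1-/-, and 32.8 and 62.5 in Brg1+/+. In mTEClo libraries it was 8.06 and 2.95, 7.14 and a listed 0, 0.521 and 2.72, and 1.99 and 7.16 in the same order. Every mTEChi library was above every mTEClo library. On the log2(signal + 1) scale, which understates the change of low regions, the log2 fold change was 3.01 in Aire-/- (SE 0.85, limma adjusted p = 0.0189), 4.02 in Aire+/+ (adjusted p = 0.0025), 2.96 in Brg1-/- (adjusted p = 0.0288) and 3.23 in Brg1+/+ (adjusted p = 0.0111). The Brg1-/- call was lost under each rescaling (adjusted p = 0.117 to 0.154). Each call was also lost without at least 1 library: without Aire-/- mTEChi replicate 1 or 2 or mTEClo replicate 2, Aire+/+ mTEClo replicate 2, Brg1-/- mTEChi replicate 2 or mTEClo replicate 1, and Brg1+/+ mTEChi replicate 2 or mTEClo replicate 1 (limma adjusted p = 0.0655 to 0.238).

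The other member higher in mTEChi in all 4 genotypes lay on chromosome 7 from 114753073 to 114753572. Its mTEChi libraries held 79.8 to 136 with a median of 99.6, and its mTEClo libraries 12.9 to 30.7 with a median of 20.4. The groups did not overlap. The log2 fold changes were 2.31 in Aire-/-, 2.65 in Aire+/+, 1.97 in Brg1-/- and 2.25 in Brg1+/+ (SE 0.44, limma adjusted p = 0.000752, 0.000212, 0.00606 and 0.00103). The Brg1-/- call was lost with re-centring (adjusted p = 0.128), without Brg1-/- mTEChi replicate 2 (0.0666) and without Brg1-/- mTEClo replicate 2 (0.0973).

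Of the members lower in mTEChi in all 4 genotypes, one lay on chromosome 9 from 40037179 to 40037678, in the fullest island. Its mTEChi libraries held 6.48 to 34.2 with a median of 27.1, and its mTEClo libraries 81.8 to 187 with a median of 137. The groups were far apart, and the log2 fold changes were -2.03 in Aire-/-, -2.69 in Aire+/+, -2.78 in Brg1-/- and -2.31 in Brg1+/+ (SE 0.42, limma adjusted p at most 0.00166). This member passed in all 4 genotypes under each alternative tried.

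The other lay on chromosome 7 from 113380041 to 113380540, with 9.44 to 38.5 in mTEChi libraries (median 30.3) and 69.6 to 158 in mTEClo libraries (median 119.5). Again the groups did not overlap. Its log2 fold changes were -1.95 in Aire-/-, -2.04 in Aire+/+, -1.96 in Brg1-/- and -2.43 in Brg1+/+ (SE 0.47, limma adjusted p = 0.00648, 0.00535, 0.0101 and 0.000885). Its calls were lost without Aire-/- mTEChi replicate 1 or either Aire-/- mTEClo library, Aire+/+ mTEChi or mTEClo replicate 2, Brg1-/- mTEChi replicate 1 or mTEClo replicate 2, or Brg1+/+ mTEChi replicate 1 (limma adjusted p = 0.0546 to 0.172).

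**Figure D3:**
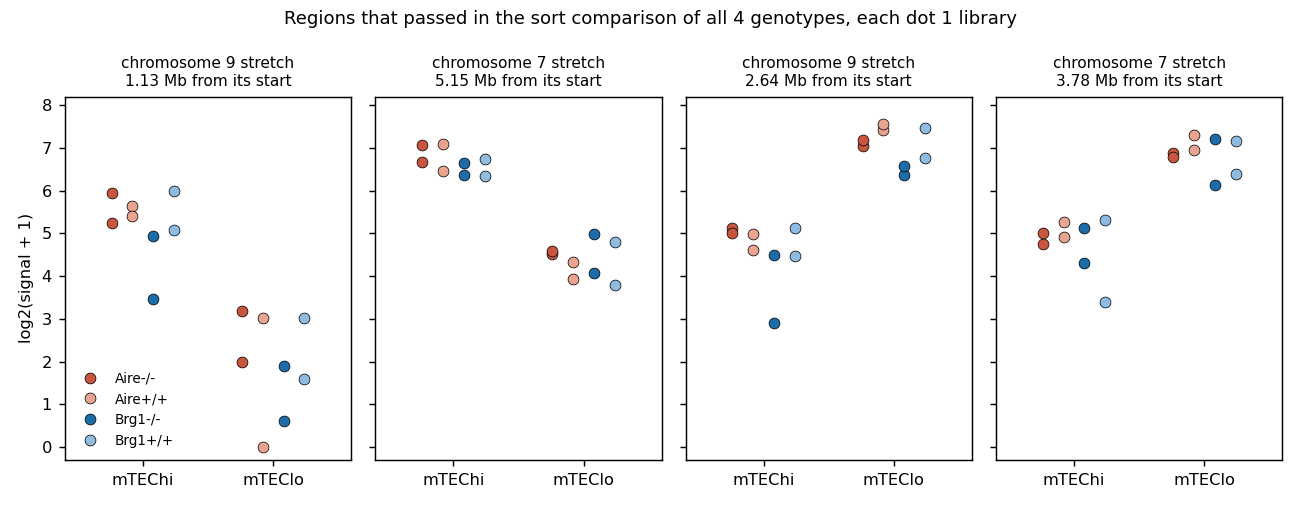
The log2(signal + 1) of the 4 members that passed in the sort comparison of every genotype, with mTEChi libraries left of mTEClo libraries and 1 dot per library. At each of the 4 the sorts do not overlap: the members on the left are higher in mTEChi and those on the right are lower.

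Other members passed in some genotypes and not in others. On chromosome 9 from 40013980 to 40014479, signal was 39.3 and 46.6 in Aire-/- mTEChi libraries and 1.90 and 1.43 in Aire-/- mTEClo libraries, a log2 fold change of 4.04 (SE 0.67, limma adjusted p = 0.000152). In Aire+/+ mice it was 45.2 and 31.9 in mTEChi and 11.4 and 11.2 in mTEClo (1.66, adjusted p = 0.122). The mTEChi libraries of the genotypes overlapped, and both Aire-/- mTEClo libraries lay below both Aire+/+ mTEClo libraries. This difference did not pass as a test of the sort effect between genotypes (2.38, limma adjusted p = 0.959).

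The deepest falls in mTEChi lay on chromosomes 9 and 7. On chromosome 9 from 40056674 to 40057173, Brg1+/+ mTEChi libraries held 1.47 and 6.65 and mTEClo libraries 66.1 and 62.1 (log2 fold change -3.90, SE 0.63, limma adjusted p = 0.000113). The lowest fold change in Aire+/+ mice belonged to the chromosome 7 region from 109830220 to 109830719. Its mTEChi libraries held 3.26 and 4.92 and its mTEClo libraries 57.9 and 89.3 (-3.86, SE 0.78, adjusted p = 0.0016). For Aire-/- mice it was the chromosome 7 region from 109627889 to 109628388. Signal there was 4.30 and 10.5 in mTEChi libraries and 85.8 and 86.2 in mTEClo libraries (-3.48, SE 0.60, adjusted p = 0.00023). All 3 regions passed in both wild types, in the same direction. The Aire+/+ call at 109627889 was lost without mTEChi or mTEClo replicate 1 (limma adjusted p = 0.17 and 0.089), and its Brg1+/+ call without Brg1+/+ mTEChi replicate 1 (0.0512). So was the Brg1+/+ call at 109830220 without its mTEChi or mTEClo replicate 1 (0.0932 and 0.0515).

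Of the 3 stretches, that of chromosome 2 had the highest median in each genotype. Its tested members had a median log2 fold change, mTEChi over mTEClo, of 0.79 in Aire-/-, 0.67 in Aire+/+, 0.64 in Brg1-/- and 0.82 in Brg1+/+. On chromosome 7 the medians were -0.09, -0.08, 0.49 and 0.29 in the same genotypes, and on chromosome 9 they were 0.20, 0.32, 0.62 and 0.30. In Brg1-/- mice the lead of chromosome 2 over chromosome 9 was narrow, at 0.64 against 0.62. On chromosome 2, 10 of 42 members were called higher in mTEChi in at least one genotype and 1 was called higher in mTEClo. On chromosome 7 these counts were 21 and 17 of 183, and on chromosome 9 they were 18 and 8 of 97. Of other tested regions, 16.7% were called higher in mTEChi and 7.68% higher in mTEClo in at least one genotype.

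Relative to other regions, the chromosome 2 median stood higher by 0.69 in Aire-/- mice, by 0.51 in Aire+/+ and by 0.41 in Brg1+/+, but by 0.02 in Brg1-/-. Over the alternative settings these differences were 0.19 to 1.17, 0.09 to 0.78, 0.15 to 0.65 and -0.40 to 0.40. The chromosome 7 median stood lower by 0.18, 0.24, 0.13 and 0.13 in Aire-/-, Aire+/+, Brg1-/- and Brg1+/+ mice, and the alternatives gave differences of -0.42 to -0.11, -0.37 to -0.15, -0.17 to -0.06 and -0.30 to 0.04. For chromosome 9 the differences were 0.11, 0.16, -0.002 and -0.11 in that order of genotypes. Their ranges over the alternatives were -0.06 to 0.26, -0.12 to 0.28, -0.04 to 0.21 and -0.21 to 0.02. In Brg1-/- mice the ranges of chromosomes 2 and 9 overlapped. The differences between stretches are given as descriptions, with no test.

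**Figure D4:**
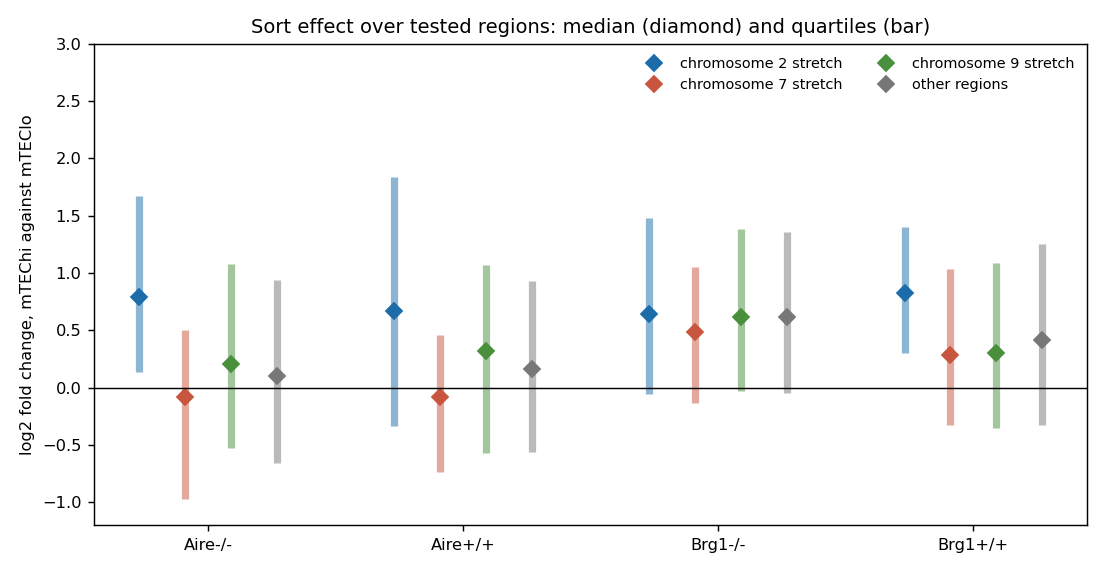
Log2 fold change of mTEChi over mTEClo (vertical axis) in each genotype, as the median (diamond) and quartiles (bar) of the tested members of each stretch and of the other tested regions. The chromosome 2 median is between 0.64 and 0.82 in all 4 genotypes and is the highest of the 3 stretches in each, but in Brg1-/- mice it lies 0.02 from the median of the other regions.

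Among the chromosome 2 members called were neighbours in an island of 6 members, from 87515406 to 87557162. On chromosome 2 from 87551137 to 87551636, signal in mTEChi was 122 and 64.2 in the Aire-/- libraries, 37.6 and 37.9 in Aire+/+ libraries, 4.12 and 44.0 in Brg1-/- libraries, and 14.8 and 25.4 in Brg1+/+ libraries. The mTEClo libraries held 0.383 to 10.4 with a median of 3.98. Only 1 of the 8 mTEChi libraries, of Brg1-/-, fell inside the mTEClo range. The Brg1-/- call given next rests on mTEChi libraries of 4.12 and 44.0. Whether that call was kept under the alternatives is not reported here. The log2 fold change was 3.60 in Aire-/- (limma adjusted p = 0.00386), 2.95 in Brg1-/- (0.0241) and 3.13 in Brg1+/+ (0.0108), and it did not pass in Aire+/+ (1.83, adjusted p = 0.175). The Aire-/- call was lost without mTEChi replicate 1 or mTEClo replicate 2 (0.0916 and 0.0629), and the Brg1+/+ call without mTEChi replicate 2 or mTEClo replicate 1 (0.102 and 0.149), with quantile normalization (0.0674) and with only the libraries of the line (0.0554).

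Its neighbour from 87538510 to 87539009 passed in Aire-/- alone, with 61.1 and 50.7 in mTEChi and 1.90 and 7.11 in mTEClo (log2 fold change 3.54, limma adjusted p = 0.0037, lost without mTEChi or mTEClo replicate 1 at 0.0581 and 0.0886). Aire+/+ mTEChi libraries held 43.4 and 27.4 there and Aire+/+ mTEClo libraries 7.38 and 8.68 (1.98, adjusted p = 0.127). On chromosome 2 from 85362676 to 85363175, Aire-/- mTEChi libraries held 94.9 and 94.3 and Aire-/- mTEClo libraries 7.96 and 9.98 (3.27, limma adjusted p = 0.000315). It also passed in Aire+/+ mice, with 40.8 and 37.5 in mTEChi libraries, against 7.14 and 6.01 in mTEClo libraries (2.41, adjusted p = 0.00708).

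In Brg1-/- mice that region held 13.7 and 14.4 in mTEChi and 17.3 and 11.5 in mTEClo, a log2 fold change of -0.01. Brg1+/+ mTEChi libraries held 27.5 and 25.1 at that region, and Brg1+/+ mTEClo libraries 11.8 and 9.47 (1.24, limma adjusted p = 0.159). The exception on chromosome 2 was the region from 87189982 to 87190481, which fell in Brg1+/+ mTEChi to 1.53 and 8.76, against 46.2 and 57.5 in mTEClo (-3.40, limma adjusted p = 0.00189). That call was lost without Brg1+/+ mTEChi replicate 1 (0.0627).

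Among the large islands, which were picked here after their values were seen and so were not tested, the 12 members on chromosome 9 from 38521680 to 38598740, of which 11 were tested, had median log2 fold changes of 1.07 in Aire-/-, 0.83 in Aire+/+, 1.86 in Brg1-/- and 0.92 in Brg1+/+. In Aire-/- mice this rested on 1 library: the difference from other regions was 0.98, and it was -0.14 without mTEChi replicate 1. The 59-member island of chromosome 7, of which 50 members were tested, had medians of -0.78 in Aire-/-, -0.16 in Aire+/+, 0.43 in Brg1-/- and 0.27 in Brg1+/+ mice.

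The knockout comparisons asked whether loss of Aire or Brg1 moves accessibility. No member passed in any of them. For Aire-/- against Aire+/+ in mTEChi, limma called 0 members, against 0.0209% of all tested regions, and 32 members (9.94%) had an unadjusted p under 0.05, against 10.2% of other regions. In mTEClo limma called 0 members, against 0%, and 7 (2.17%) had an unadjusted p under 0.05, against 2.50%. For Brg1-/- against Brg1+/+ in mTEChi it called 0, against 0.0257%, with 31 (9.63%) at an unadjusted p under 0.05, against 10.7%. In mTEClo it called 0, against 0.000444%, with 16 (4.97%), against 6.16%.

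Fold changes of the members were spread about the same middle as those of other regions. The median log2 fold change for Aire-/- was 0.04 over members and -0.00 over other regions in mTEChi; in mTEClo these were 0.05 and 0.00. For Brg1-/- it was 0.29 over members and 0.22 over other regions in mTEChi, and 0.10 and 0.05 in mTEClo. Single members spanned -2.73 to 2.96 over the 4 comparisons. With each library re-centred on its median, the medians for Brg1-/- in mTEChi were -0.09 over members and -0.16 over other regions.

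**Figure D5:**
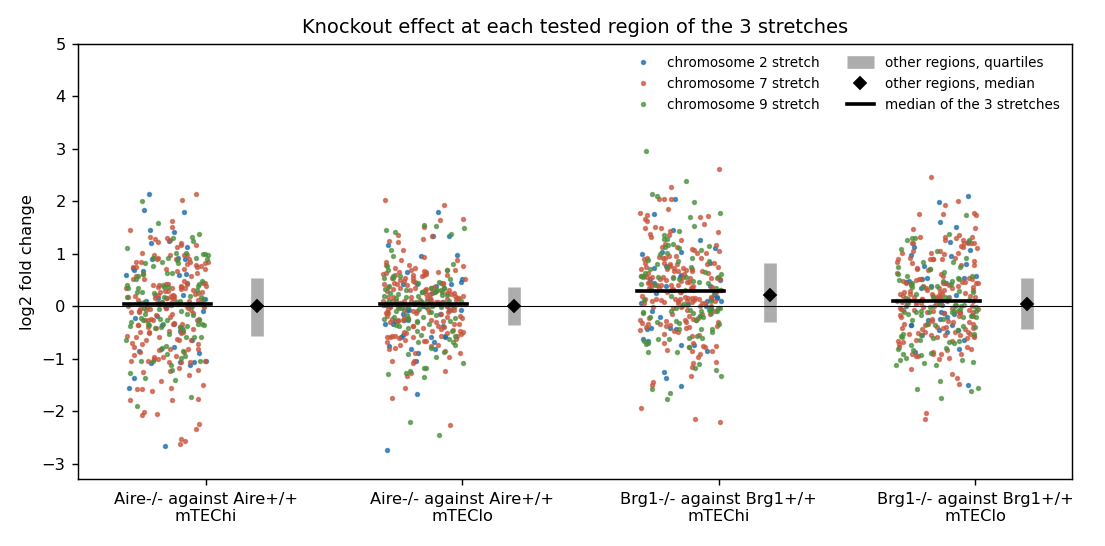
Log2 fold change (vertical axis) of each tested member for Aire-/- against Aire+/+ and Brg1-/- against Brg1+/+ in mTEChi and mTEClo, with the median of the members (line) beside the quartiles and median of other regions (grey bar and diamond). Points spread from -2.73 to 2.96, none passed the test, and the medians of the members lie between 0.04 and 0.29.

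The members with the smallest p in each direction did not pass. For Aire in mTEChi, on chromosome 9 from 40138141 to 40138640, Aire-/- libraries held 112 and 129.6 and Aire+/+ libraries 69.4 and 64.9 (log2 fold change 0.83, SE 0.27, limma adjusted p = 0.267). On chromosome 2 from 87190674 to 87191173, Aire-/- mTEChi libraries held 4.30 and 2.22 and Aire+/+ mTEChi libraries 16.8 and 37.7 (-2.67, SE 0.73, adjusted p = 0.184). At both positions the pairs of libraries did not overlap, yet the adjusted p stayed above the threshold. In mTEClo the member with the smallest p in the negative direction was the chromosome 9 region from 40013980, with 1.90 and 1.43 in Aire-/- and 11.4 and 11.2 in Aire+/+ (-2.21, SE 0.67, adjusted p = 1).

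For Brg1 in mTEChi, on chromosome 7 from 114891443 to 114891942, Brg1-/- libraries held 70.6 and 77.4 and Brg1+/+ libraries 24.9 and 8.15 (log2 fold change 2.28, SE 0.61, limma adjusted p = 0.171). On chromosome 7 from 114792408 to 114792907 signal was 1.72 and 7.48 in Brg1-/- libraries and 13.6 and 29.7 in Brg1+/+ libraries (-2.14, SE 0.70, adjusted p = 0.264). These members lie in the same island of chromosome 7 and had fold changes of opposite sign, and neither passed. In mTEClo, on chromosome 9 from 40138717 to 40139216, Brg1-/- libraries held 9.64 and 17.3 and Brg1+/+ libraries 51.9 and 40.7 (-1.75, SE 0.52, adjusted p = 0.608).

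Whether the sort effect differed by genotype was tested as an interaction. For Aire, limma called 0 members, against 0.000444% of all tested regions, and 18 members (5.59%) had an unadjusted p under 0.05, against 5.15% of other regions. For Brg1 it called 0, against 0%, with 26 (8.07%), against 7.09%. The smallest adjusted p of a member was 0.959 for Aire and 0.424 for Brg1. The Brg1 value belonged to chromosome 9 from 37463778 to 37464277, where the sort effect was 1.80 in Brg1-/- and -1.10 in Brg1+/+ on the log2 scale (difference 2.90, SE 0.75). Its Brg1-/- libraries held 45.6 and 78.7 in mTEChi and 11.9 and 22.8 in mTEClo, and its Brg1+/+ libraries 24.5 and 11.4 in mTEChi and 47.0 and 29.2 in mTEClo.

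The wild types of the lines, Aire+/+ and Brg1+/+, were also compared. In mTEChi limma called 0 members, against 0.156% of all tested regions, with 34 (10.6%) at an unadjusted p under 0.05, against 10.5% of other regions. In mTEClo it called 0, against 0.0368%, with 31 (9.63%), against 7.40%. The median log2 fold change of Aire+/+ over Brg1+/+ was 0.20 over members and 0.18 over other regions in mTEChi, and 0.42 over both in mTEClo. The smallest adjusted p belonged to chromosome 7 from 112629359 to 112629858, with 14.3 and 41.6 in Aire+/+ mTEChi and 4.13 and 1.49 in Brg1+/+ mTEChi (log2 fold change 2.84, SE 0.69, limma adjusted p = 0.0918).

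One member separated the lines in both sorts and genotypes. On chromosome 2 from 86304789 to 86305288, the 8 libraries of the Aire line held 7.95 to 43.1 and the 8 of the Brg1 line 0.358 to 7.55. All libraries of the Aire line lay above all of the Brg1 line at 1 of 322 members, against 0.0701% of all tested regions, and the reverse held at 0 members, against 0.0803%. In limma its difference did not pass, with a log2 fold change of 3.72 in mTEClo wild types (SE 0.96, adjusted p = 0.358) and 2.35 in mTEChi wild types (adjusted p = 0.374).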

How the data were processed

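The authors deposited 1 table of ATAC-seq signal for 250313 regions in 16 libraries, and each column matched the description of 1 library. Bowtie2, MACS2 and mm9 are named, without versions, in the submitters' processing notes. The definition of regions, the Tn5 read shift, duplicate removal and library scaling are steps not given in the sources used here. As deposited, the signal is not in whole counts, so depth is unknown, no counting interval could be given and no count model was used; precision rests on 2 libraries per group. Levels can be set side by side across libraries only if the authors' scaling allows it. A 0 was listed for 10165 values, 21 of them in the members.

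Region starts were taken as counted from 0 and are printed counted from 1. limma 3.58.1 in R 4.3.3 fitted log2(signal + 1) with 1 mean per group over 16 libraries (8 residual degrees of freedom, trend and robust moderation) for the 225281 regions with a mean at or above the 10th percentile. Within each of 12 contrasts, p-values were two-sided and adjusted by Benjamini-Hochberg over all tested regions, with a threshold of 0.05. The procedure was tested on simulated data. Where values follow a named member with an SE or adjusted p, they come from this fit.

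The members, lists and rules were chosen with earlier results of these data known. Named members were the 3 with the highest mean signal per stretch, the 5 with the largest log2 fold change per sort comparison and direction among those called, those called in all 4 genotypes, the smallest p in each direction where none was called, and the longest gaps; the text gives a subset. Alternatives were pseudocounts of 0.5 and 5, the low-signal filter dropped or raised to the 50th percentile, quantile, cyclic loess and median scaling, limits moved by 200 kb, only the 8 libraries of a line, a replicate block, and leaving out each library. Genes near members, marker genes of the sorted cells and sequence of the regions were not analysed here, so cell identity and genotype rest on the labels.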

Additional observations from a re-analysis of the deposited data

How the results depend on the processing

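The density of members relative to the rest of the genome stayed lower under every alternative (2.74 to 4.18-fold lower). Counts of members called between the sorts moved by over 1.5 times under some settings. Shortening each stretch by 200 kb at both ends left 235 tested members in place of 322. It gave 15 in Aire+/+ (6.38%, against 7.45% before) and 13 in Brg1-/- mice (5.53%, against 6.21%). The share was 10.6% in Aire-/- (10.2% before) and 11.5% in Brg1+/+ mice, as before. Quantile normalization gave 22 in Brg1+/+ and 10 in Brg1-/-, and cyclic loess gave 8 in Brg1-/-. The share called over all tested regions fell too. With quantile normalization it was 7.57% in Brg1+/+ (13.0% before) and 4.22% in Brg1-/- (8.11% before). With cyclic loess it was 3.71% in Brg1-/-. The cause was not tested. Leaving out 1 library gave 9 to 18 members in Aire-/-, 5 to 19 in Aire+/+, 7 to 12 in Brg1-/- and 15 to 20 in Brg1+/+. In comparisons with no member called, it gave 0 to 3 for Aire-/- against Aire+/+ in mTEChi (3 without Aire+/+ mTEChi replicate 1), 0 to 1 for Brg1-/- against Brg1+/+ in mTEChi (1 without Brg1+/+ mTEChi replicate 2) and 0 to 4 for Aire+/+ against Brg1+/+ in mTEChi (4 without Aire+/+ mTEChi replicate 1); it gave 0 in the other comparisons. Over all 225281 tested regions these 3 fits called 2243, 340 and 1608. One of those 4 was the chromosome 7 region from 112629359, with a log2 fold change of 3.57 (limma adjusted p = 0.0228). The sort shift of the chromosome 9 island in Aire-/- ranged from -0.14 without Aire-/- mTEChi replicate 1 to 1.70 without Aire-/- mTEChi replicate 2, against 0.98 with all libraries. Of 847 alternative values for named members, 737 kept their direction and side of the threshold, 109 kept the direction but no longer passed and 1 newly passed. Replicate numbers gave no sign of pairing: over 28 pairs of groups the correlation of same-numbered deviations lay between -0.018 and 0.034. With 2 libraries per group, noise at single regions can hide a pairing, so this check cannot exclude one. The fit with the replicate block gave 34 members in Aire-/-, 24 in Aire+/+, 21 in Brg1-/- and 36 in Brg1+/+, and 0 in the other comparisons. These were 10.6%, 7.45%, 6.52% and 11.2% of the tested members. Of all tested regions, that fit called 11.3%, 8.70%, 8.06% and 12.9% in the same order of genotypes, and at most 0.157% in the other comparisons. Depth is unknown and groups hold 2 libraries, so comparisons with no call do not show that accessibility was the same.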
